A study of Mus musculus with 8 samples.

Results

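The Hox genes were read in basal cells of mouse back-skin epidermis as every gene whose symbol on the array platform is Hox, a cluster letter from a to d and a paralogue number, with nothing more. The table of current gene names lists 39 such genes, and 34 of them were measured here, among 17097 genes in all: 9 of the HoxA cluster, 10 of HoxB, 6 of HoxC and 9 of HoxD. The others were not analysed here. Each gene was read through a single probe set, a group of short oligonucleotides on the array, and where a gene had several that carried its symbol alone, the one with the highest mean over the 8 arrays was used.

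The mice were of the CD1 stock. The control group held 3 untreated mice, labelled CTRL. The group labelled EXPD4 held 3 mice whose back skin had been stretched by a force, which enlarges it, and which were sampled at day 4. The group labelled TPA held 2 mice treated with 12-O-Tetradecanoylphorbol-13-acetate, a phorbol ester that drives epidermal cells to divide, and the labels give neither its dose nor its timing. No label gives a transgene, and the labels used here give no age. Each mouse gave 1 array. From each, 300 live cells positive for integrin alpha 6 and negative for CD34 were sorted, a gate meant to take the basal layer between hair follicles and to leave out the follicle bulge. Their cDNA was amplified for 25 cycles. Values are log2 signals, so that a difference of 1 is a doubling. A signal was called above background when it passed, on its own array, the 95th percentile of 77 smell, vomeronasal and trace amine receptor genes, which lay between 6.40 and 6.56. This limit assumes that those receptors are silent in epidermis.

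The basal keratins Krt5 and Krt14 were high on all arrays, at group means of 13.28 to 13.33, and Cd34 was under the limit on all 8. Genes that TPA or wounding is known to raise ran against the labels. The stress keratin Krt6a read 13.23 ± 0.06 (SD, n = 3) on the control arrays, 13.14 ± 0.02 (n = 3) on the expanded arrays and 12.54 ± 0.15 (n = 2) on the TPA arrays. Odc1, the polyamine enzyme ornithine decarboxylase, read 11.34 ± 0.02, 9.84 ± 0.14 and 8.99 ± 0.09 in the same order. The names control, expanded and TPA below stand for the arrays so labelled. If the labels of the control and TPA arrays were exchanged, every difference between those groups would turn its sign, and the differences of the expanded arrays from each would trade places.

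Hox genes encode homeodomain transcription factors and lie in clusters in which the order of the genes along the chromosome follows the order of the body regions in which they act. Members with the same number in different clusters are paralogues, with the low numbers acting toward the head and the high numbers toward the tail and the ends of the limbs. The proteins bind DNA together with cofactors of the PBX, MEIS and PKNOX families. Polycomb complexes keep the clusters silent, Trithorax complexes keep them active, and retinoic acid is a classical inducer. Adult skin keeps a Hox pattern that depends on its place on the body, and Hoxc13 is needed for hair and nail.

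In these cells 19 of the 34 Hox genes were above the background limit on all 8 arrays, 11 were under it on all 8, and Hoxa5, Hoxb5, Hoxb6 and Hoxb9 were above it on some. Single arrays had 20 to 22 Hox genes above the limit. The 19 comprised 4 of 9 in HoxA, 5 of 10 in HoxB, 4 of 6 in HoxC and 6 of 9 in HoxD. With the 99th percentile of the receptor genes as the limit, 11 Hox genes were above it on all arrays.

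Against the control arrays, 5 of 34 Hox genes (14.7%) passed the test on the expanded arrays, all of them higher, beside 11.5% of all genes tested. These were Hoxa10, Hoxc13, Hoxd9, Hoxd10 and Hoxd11. On the TPA arrays 6 of 34 (17.6%) passed, again all higher, beside 20.8% of all genes. These were Hoxa5, Hoxa9, Hoxb9, Hoxc13, Hoxd10 and Hoxd11. The test was limma's moderated test over all 8 arrays, with Benjamini-Hochberg adjustment over the 17097 genes and a threshold of 0.05. Both shares were near those of all genes. By direction, 5.69% of all genes were called higher and 5.78% lower on the expanded arrays, and 10.2% higher and 10.6% lower on the TPA arrays. At an unadjusted p under 0.05, limma gave 6 Hox genes higher and 1 lower on the expanded arrays. On the TPA arrays it gave 9 higher and 1 lower. Of all 17097 genes, 4056 were under that threshold on the expanded arrays, in either direction. The like count for the TPA arrays is not given here. The median difference from control over the 34 Hox genes was 0.09 on the expanded arrays and 0.09 on the TPA arrays, beside 0.01 and -0.03 over all genes. Both comparisons use the same 3 control arrays, so their lists are not independent.

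Over all 3 comparisons 8 of the 34 Hox genes passed at least 1, beside 23.2% of all genes, a like share. By position, 7 of the 14 measured genes with paralogue numbers 9 to 13 passed in at least 1 comparison, and 1 of the 20 with numbers 1 to 8 did. Of the higher-numbered genes, 10 of 14 were above the limit on all arrays, against 9 of 20 of the lower-numbered ones. By cluster, HoxD had 3 called genes of 9 on the expanded arrays and 2 on the TPA arrays, HoxC had 1 of 6 on each, and HoxA had 1 and 2 of 9. HoxB had 1 call among its 10 genes, Hoxb9 on the TPA arrays. These are counts of a list chosen with earlier results of the same arrays known.

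**Figure D1:**
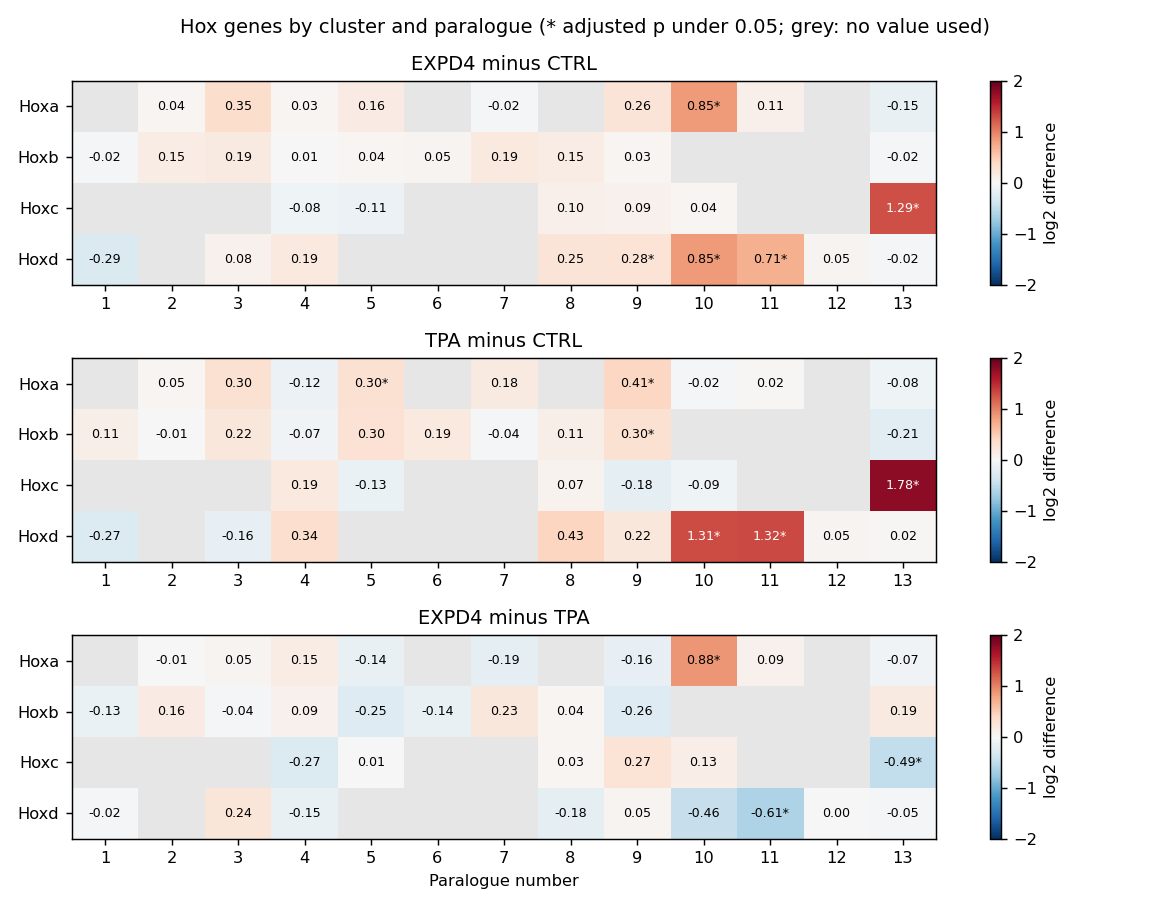
Log2 difference of every measured Hox gene, placed by cluster (rows) and paralogue number (columns), for expanded minus control, TPA minus control and expanded minus TPA. Asterisks mark an adjusted p under 0.05, grey cells have no value used, and the strongest colours lie at Hoxc13, Hoxd10 and Hoxd11 against control, up to 1.78 for Hoxc13 on the TPA arrays, and at Hoxa10 where the expanded arrays enter, at 0.85 against control and 0.88 against TPA.

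The 3 neighbours Hoxd9, Hoxd10 and Hoxd11 all rose on the expanded arrays, so the sequences just before their starts are shown. Sorted by where their RefSeq models begin, the genes on chromosome 2 run Hoxd13, Hoxd12, Hoxd11, Hoxd10, Hoxd9, Hoxd8, Hoxd3, Hoxd4, Hoxd1. The models of Hoxd3 and Hoxd4 overlap, so this sort does not settle the order of those genes. Those of Hoxd10 and Hoxd11 overlap as well, though both windows of Hoxd11 given below lie before that of Hoxd10. Each sequence is the 250 bases upstream of a start annotated by RefSeq on GRCm38.p6, plus strand, 5′ to 3′, in lower case with CG dinucleotides in capitals. Hoxd9 is at chr2:74697513-74697762, Hoxd10 at chr2:74691641-74691890, and Hoxd11 has 2 starts, with windows at chr2:74679308-74679557 and chr2:74682073-74682322.
Hoxd9: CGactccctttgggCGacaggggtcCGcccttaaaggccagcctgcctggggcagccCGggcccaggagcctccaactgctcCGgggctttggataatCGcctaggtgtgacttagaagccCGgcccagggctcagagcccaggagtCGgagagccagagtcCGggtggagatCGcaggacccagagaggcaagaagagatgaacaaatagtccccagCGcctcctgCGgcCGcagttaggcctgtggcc
Hoxd10: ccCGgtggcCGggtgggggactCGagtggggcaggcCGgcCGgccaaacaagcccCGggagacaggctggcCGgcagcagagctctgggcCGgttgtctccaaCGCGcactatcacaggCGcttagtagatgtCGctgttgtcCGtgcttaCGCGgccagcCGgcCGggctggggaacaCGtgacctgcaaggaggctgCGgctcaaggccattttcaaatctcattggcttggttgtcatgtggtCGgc
Hoxd11, first start: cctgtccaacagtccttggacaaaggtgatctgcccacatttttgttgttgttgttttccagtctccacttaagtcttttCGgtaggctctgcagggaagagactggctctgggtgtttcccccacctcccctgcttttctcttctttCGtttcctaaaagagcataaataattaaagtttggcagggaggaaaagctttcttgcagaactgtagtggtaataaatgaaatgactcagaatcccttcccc
Hoxd11, second start: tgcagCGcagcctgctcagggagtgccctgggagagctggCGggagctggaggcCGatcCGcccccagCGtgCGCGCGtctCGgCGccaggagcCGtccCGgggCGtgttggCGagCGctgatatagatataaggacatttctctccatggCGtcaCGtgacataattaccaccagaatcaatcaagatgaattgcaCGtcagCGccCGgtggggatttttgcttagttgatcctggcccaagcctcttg

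These windows held 13 CG dinucleotides for Hoxd9, 20 for Hoxd10, and 2 and 20 for the first and second start of Hoxd11. The median over all 32851 windows of the same length was 6, and 31.5% of them held at least 13. The windows of these neighbours thus include starts with few and with many CG. Over the 24 windows that the table gives for 22 Hox genes, the number ran from 2 to 35. The PBX-HOX composite TGATNNAT, searched on both strands, was in 7.68% of all windows and in 4 of the 24 Hox windows, among them the second start of Hoxd11, where the forward strand reads ATCAATCA from base 178. The posterior HOX motif TTTATNG was in 9.81% of all windows and 2 of the 24, and the MEIS and PKNOX motif TGACAG in 15.9% and 2 of the 24. Neither was in the 4 windows shown, and the letters of TGATNNAT are not in the other 3. Such matches describe letters and not binding. The arrays did not measure DNA methylation or binding.

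Hoxc13 (probe set 1425874_PM_at), a factor that switches on hair keratin genes in the follicle, had the largest difference from control of the 34 in both comparisons. Its signal was 7.27, 7.16 and 7.34 on the control arrays, 8.55, 8.48 and 8.62 on the expanded arrays, and 8.93 and 9.14 on the TPA arrays. The 3 groups did not overlap, with the expanded arrays between the others. The mean on the expanded arrays was higher than on the control arrays by 1.29 ± 0.09 (SE; 3 against 3), a 2.45-fold rise (limma adjusted p = 6.35e-05). On the TPA arrays it was higher by 1.78 ± 0.10 (2 against 3), a 3.44-fold rise (limma adjusted p = 8.34e-06). These are bulk signals, so more cells of a type and more RNA per cell cannot be told apart, here or for the genes that follow. Hoxc10 and Hoxc9, the other posterior HoxC genes measured, did not pass.

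Hoxd11 (1450584_PM_at), which patterns the forearm, the kidney and the lower spine together with Hoxa11, read 9.50, 9.37 and 9.22 on the control arrays, 10.01, 10.08 and 10.12 on the expanded arrays, and 10.65 and 10.71 on the TPA arrays. The groups again did not overlap. It rose by 0.71 ± 0.08 on the expanded arrays, 1.63-fold (limma adjusted p = 0.00113), and by 1.32 ± 0.09 on the TPA arrays, 2.49-fold (limma adjusted p = 3.42e-05).

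Hoxd10 (1418606_PM_at), which acts in hindlimb and spinal motor neuron patterning, read 7.96, 7.40 and 7.82 on the control arrays, 8.64, 8.62 and 8.48 on the expanded arrays, and 8.96 and 9.12 on the TPA arrays. The control arrays spread more than the others, and no group overlapped another. It rose by 0.85 ± 0.14 on the expanded arrays, 1.80-fold (limma adjusted p = 0.00502), and by 1.31 ± 0.15 on the TPA arrays, 2.48-fold (limma adjusted p = 0.000487). The RefSeq gene models of Hoxd10 and Hoxd11 overlap. The positions of the probes were not used here, so a probe set of one could in principle read a transcript of the other.

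Hoxd9 (1419126_PM_at), a limb and axial patterning gene, read 11.83, 11.86 and 11.82 on the control arrays, 12.18, 12.05 and 12.11 on the expanded arrays, and 12.07 and 12.05 on the TPA arrays. All treated arrays lay above all control arrays, by a small margin. The rise on the expanded arrays was 0.28 ± 0.07, 1.21-fold (limma adjusted p = 0.0286). It missed the threshold when any of CTRL 1, CTRL 2, CTRL 3, EXPD4 1 or EXPD4 3 was left out, with an adjusted p of up to 0.103. The call was also lost with the replicate block, at a limma adjusted p of 0.0741. On the TPA arrays the difference was 0.22 ± 0.07 and did not pass (limma adjusted p = 0.0665). That value moved to the other side of the threshold under 4 alternatives, with an adjusted p of 0.0444 after quantile normalization, 0.0476 with the mean of the probe sets of a gene, 0.0348 with signals raised to the background limit and 0.00349 with a trended robust prior.

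On either side of these 3 genes the neighbours did not pass, with exceptions among the alternatives for Hoxd8. Hoxd12, the next gene beyond Hoxd11, had means of 6.90, 6.95 and 6.95 on the control, expanded and TPA arrays. Hoxd8 (means of 7.95, 8.21 and 8.38), which sits next to Hoxd9, differed from control by 0.25 ± 0.15 on the expanded arrays, where EXPD4 2 read 7.83 and the others 8.42 and 8.37, and by 0.43 ± 0.16 on the TPA arrays (limma adjusted p = 0.104). Without EXPD4 2 the adjusted p of Hoxd8 was 0.0184 for expanded against control and 0.00942 for TPA against control. The latter also passed with the mean of its probe sets (0.51, adjusted p = 0.0262) and with only the arrays of the groups compared (adjusted p = 0.0198). Of the non-Hox genes listed beside the clusters, Evx2, Mtx2, Lnpk and Atf2 by HoxD differed from control by -0.25 to 0.27. They did not pass in either comparison. The range does not cover Atp5mc3 and Hnrnpa3, which are on the same list. Whether Hoxd9 to Hoxd11 differ from these neighbours was not tested.

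**Figure D2:**
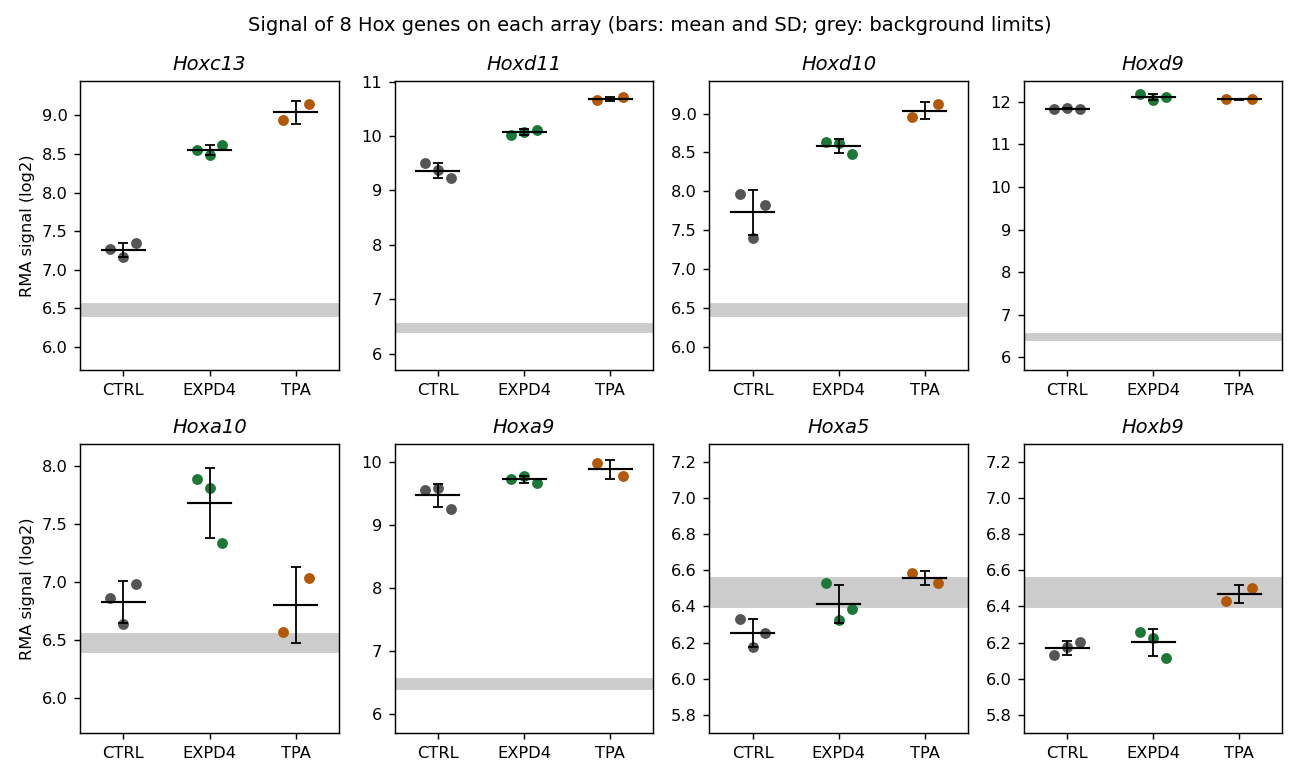
Log2 signal of the 8 Hox genes past the test in at least 1 comparison, 1 point per array, with bars at the mean and SD of each group and a grey band over the range of the background limits. Each panel has its own scale. For Hoxc13, Hoxd10 and Hoxd11 the expanded arrays lie between the control and the TPA arrays, and for Hoxa10 the expanded arrays stand above both.

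Hoxa10 (1431475_PM_a_at), best known from uterus and haematopoiesis, read 6.86, 6.63 and 6.98 on the control arrays, 7.89, 7.81 and 7.34 on the expanded arrays, and 6.57 and 7.03 on the TPA arrays. The expanded arrays lay above all others, while the control and TPA arrays overlapped. Against control the rise was 0.85 ± 0.18, 1.81-fold (limma adjusted p = 0.0155), and it missed the threshold without CTRL 2, EXPD4 1 or EXPD4 2 (adjusted p of up to 0.0617). Between TPA and control the difference was -0.02 ± 0.20 (limma adjusted p = 0.953).

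Hoxa9 (1421579_PM_at), a regulator of blood progenitors and a known leukaemia gene, read 9.56, 9.59 and 9.26 on the control arrays, 9.73, 9.77 and 9.67 on the expanded arrays, and 9.99 and 9.78 on the TPA arrays. CTRL 3 was the lowest array, and both treated groups lay above all control arrays. The rise on the TPA arrays was 0.41 ± 0.12, 1.33-fold (limma adjusted p = 0.036), and the difference on the expanded arrays was 0.26 ± 0.10 and did not pass (limma adjusted p = 0.173). The call on the TPA arrays was lost without CTRL 3, EXPD4 1, EXPD4 2 or EXPD4 3, and with each array centred on its median (limma adjusted p = 0.0544). It was also lost with only the arrays of the groups compared (0.0809) and with the replicate block (0.0818). Without TPA 1, which left 1 TPA array, the difference was 0.31.

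Hoxb9 (1452317_PM_at), which acts in the thorax and mammary gland, and Hoxa5 (1448926_PM_at), which acts in lung and neck, passed on the TPA arrays close to background. Hoxb9 read 6.13, 6.17 and 6.20 on the control arrays, 6.26, 6.23 and 6.12 on the expanded arrays, and 6.43 and 6.50 on the TPA arrays, of which 1 was above the limit. Its difference between TPA and control was 0.30 ± 0.08 (limma adjusted p = 0.0263). Raising signals to the limit left only 1 of its signals unchanged, and the difference turned to -0.03 (limma adjusted p = 0.73). It also missed the threshold without CTRL 1 or CTRL 2, with only the arrays of the groups compared (limma adjusted p = 0.0559) and with the replicate block (0.091). With 1 TPA array left, its difference was 0.33 without TPA 1 and 0.26 without TPA 2.

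Hoxa5 read 6.33, 6.18 and 6.25 on the control arrays, 6.53, 6.32 and 6.39 on the expanded arrays, and 6.58 and 6.53 on the TPA arrays. The control arrays were under the limit, 1 of 3 expanded arrays was above it and both TPA arrays were. The difference between TPA and control was 0.30 ± 0.09 (limma adjusted p = 0.042), of which at least 0.04 was above the limit. The call was lost in 11 of 15 alternatives, including those without CTRL 2, CTRL 3, EXPD4 3, TPA 1 or TPA 2 (adjusted p without 1 array of up to 0.177).

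Of the 26 Hox genes that passed in no comparison, 13 were above the limit on all arrays, 11 were under it on all, and Hoxb5 and Hoxb6 were above it on some. Their differences from control ran from -0.29 to 0.35 on the expanded arrays and from -0.27 to 0.43 on the TPA arrays, with a median SE of 0.10 on the expanded arrays. The median SD within a group was 0.13 over the Hox genes and 0.12 over all genes.

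In HoxA, Hoxa3, a gene of the throat and its glands, had means of 7.90 ± 0.12, 8.25 ± 0.23 and 8.20 ± 0.43 on the control, expanded and TPA arrays, and differed by 0.35 ± 0.17 on the expanded arrays (limma adjusted p = 0.268). The 2 TPA arrays of Hoxa3 read 7.90 and 8.51, so its spread was as wide as its difference. Hoxa7 stayed within 7.92 and 8.37 over all arrays.

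In HoxB, the hindbrain genes Hoxb2, Hoxb3 and Hoxb4 had group means of 6.73 to 6.89, 6.58 to 6.80 and 6.92 to 7.01. For Hoxb2, EXPD4 2 alone read 7.36. Hoxb8, a gene of the blood and spinal cord, read 7.52 and 6.60 on the 2 TPA arrays, with the control arrays between them. Hoxb13, known from the prostate and the tail end of the body, had means of 6.84, 6.81 and 6.63. Hoxb5 was above the limit on 7 arrays and read 6.85, 7.32 and 6.53 on the expanded arrays.

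In HoxC, Hoxc5, Hoxc9 and Hoxc10 were above the limit on all arrays, with signals of 7.24 to 7.67, 7.70 to 8.28 and 8.23 to 8.67 over all arrays. In HoxD, Hoxd4, a hindbrain gene, had means of 6.72, 6.91 and 7.06 and a difference of 0.34 ± 0.14 on the TPA arrays (limma adjusted p = 0.134). Hoxd1 lay under the limit on all arrays. The others under it on all arrays were Hoxa2, Hoxa4, Hoxa11, Hoxa13, Hoxb1, Hoxb7, Hoxc4, Hoxc8, Hoxd3 and Hoxd13. For these 11 a difference between groups is not readable as a change in expression.

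The 8 called Hox genes had 1 probe set each, so no second probe set checks them. Of the measured Hox genes, 6 had several (Hoxa3, Hoxb3, Hoxb4, Hoxc5, Hoxd8 and Hoxd13), and none of their other probe sets passed.

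Set directly against each other, the expanded and TPA arrays differed at 3 of 34 Hox genes (8.82%), 1 higher and 2 lower on the expanded arrays, beside 5.98% of all genes, of which 3.16% were higher and 2.81% lower. Hoxa10 was higher on the expanded arrays by 0.88 ± 0.20, 1.84-fold (limma adjusted p = 0.0361), while Hoxd11 was lower there by 1.53-fold, a difference of -0.61 ± 0.09 (limma adjusted p = 0.0082), and so was Hoxc13, by -0.49 ± 0.10 (limma adjusted p = 0.0217). The call for Hoxd11 held in all 16 alternatives. That for Hoxc13 was lost without EXPD4 1 or EXPD4 2, with only the arrays of the groups compared and with the replicate block. Without TPA 2, which left 1 TPA array, the difference of Hoxc13 was -0.38. The call for Hoxa10 was lost without any 1 of the control arrays and without EXPD4 1 or EXPD4 2. It was also lost with only the arrays of the groups compared and with the replicate block. Without TPA 1, which left 1 TPA array, the difference of Hoxa10 was 0.65. For Hoxd10 the difference was -0.46 ± 0.15 and did not pass (limma adjusted p = 0.137), except without CTRL 2 (0.0437). The arrays of the groups did not overlap for 12 of the 34 Hox genes (35.3%), beside 35.7% of all genes. The same count was 9 (26.5%, beside 30%) for expanded against control and 16 (47.1%, beside 45.8%) for TPA against control.

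**Figure D3:**
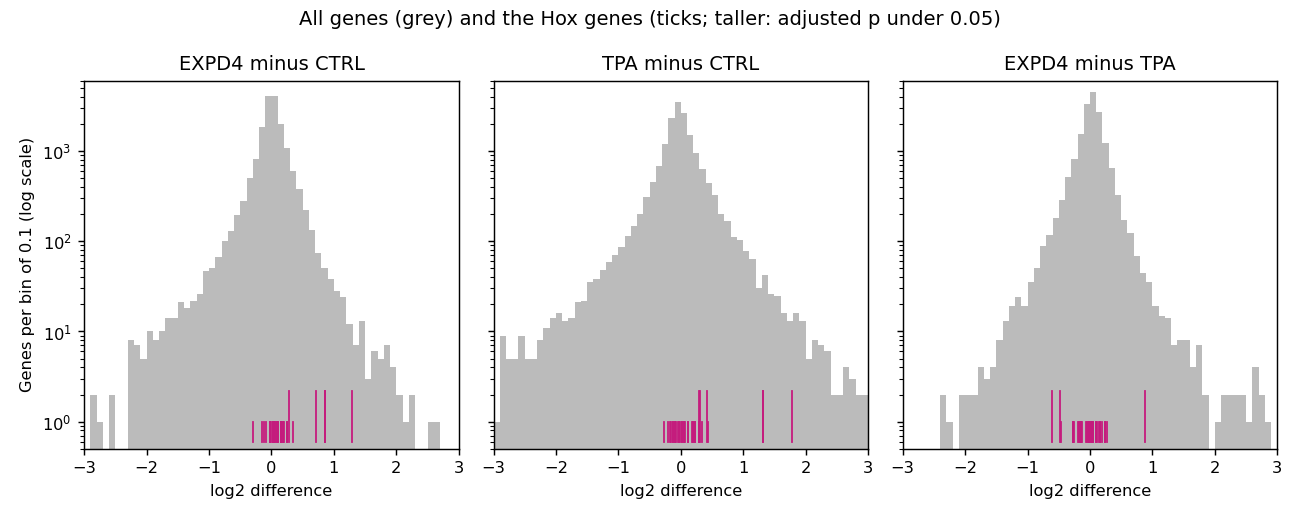
Number of genes (log scale) by log2 difference over all 17097 genes in each comparison, drawn from -3 to 3, with the 34 Hox genes as ticks, taller where the adjusted p was under 0.05. Most Hox ticks lie around 0 within the bulk of all genes, and against control the farthest to the right is Hoxc13, at 1.29 and 1.78.

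Markers of other cells moved as well. Of 7 fibroblast genes, 3 were above the limit on all arrays in each group, and their summed level (log2 of the summed linear signals of the list) was 10.29 to 10.53 on the control arrays, 11.14 to 11.70 on the expanded arrays and 11.87 to 11.95 on the TPA arrays. This is the order of Hoxc13, Hoxd10 and Hoxd11, and its part in their values was not tested. The list's median differences from control were 0.07 and 0.15. Postn rose by 1.31 and 1.90, and Dcn rose by 1.69 on the TPA arrays. Col1a1 differed by -0.60 and -0.68 and did not pass, and Col1a2, Lum and Pdgfra, which define fibroblasts, were under the limit on all arrays. Of 7 bulge genes 3 were above the limit, at a summed level of 11.14 to 11.17, 11.03 to 11.29 and 11.49 to 11.54. Against control, 0 of the 7 passed on the expanded arrays and 2 rose on the TPA arrays (28.6%, beside 20.8% of all genes). Krt75 was among these 2, though not with signals raised to the limit (limma adjusted p = 0.51). The list medians were 0.04 and 0.22, and Cd34, Lgr5 and Lhx2 were under the limit on all arrays. The part of the bulge list was likewise not tested. The summed level of 6 Langerhans cell genes was 10.47 to 11.05 on the control arrays, 9.71 to 9.99 on the expanded arrays and 10.14 to 10.31 on the TPA arrays, with list medians of -0.25 and -0.18, and 4, 3 and 3 of the 6 above the limit on all arrays of the group. Of this list H2-Ab1 was lower in both, by -1.93 and -2.46, and by less with the mean of its probe sets (-0.99, adjusted p = 0.087, and -1.28), Epcam fell by 1.04 on the expanded arrays, and the defining markers Cd207 and Ptprc were under the limit on all arrays. Its part was not tested either. Among the melanocyte, sebaceous, endothelial, T cell and Merkel cell lists, Mitf, under the limit on all arrays, and Plin2 passed against control, on the TPA arrays, the latter not without CTRL 1, CTRL 2, CTRL 3, EXPD4 1, EXPD4 3 or TPA 2 (adjusted p over all alternatives of up to 0.113). Itga6, used for the sort, fell by 0.47 on the expanded and by 0.69 on the TPA arrays. Of the 6 basal keratinocyte genes, 2 were called lower in each comparison, Itga6 among them (33.3%, beside 11.5% and 20.8% of all genes). All 6 were above the limit on all arrays, with list medians of -0.07 and 0.02. Their summed level was 15.42 to 15.48 on the control arrays, 15.32 to 15.33 on the expanded arrays and 15.37 to 15.41 on the TPA arrays.

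Of the proteins that bind DNA with Hox factors, 1 of 8 measured cofactor genes of the PBX, MEIS and PKNOX families passed on the expanded arrays and 1 of 8 on the TPA arrays, in both cases Pbx2 and higher. Pbx2 had means of 9.25, 9.56 and 9.64 on the control, expanded and TPA arrays, differences of 0.31 ± 0.08 (limma adjusted p = 0.0332) and 0.39 ± 0.09 (adjusted p = 0.0124). The first was lost without CTRL 2, CTRL 3 or any 1 EXPD4 array (adjusted p of up to 0.113). By themselves, centring each array on its median, the mean of its probe sets and the replicate block also lost it. The second was lost without TPA 2 and with the mean of its probe sets (0.24, adjusted p = 0.187). Meis1, a cofactor of Hoxa9 in blood cells, differed by 0.11 and 0.19 and did not pass. The median of the list was 0.09 and -0.01. In each comparison 12.5% of the list passed, beside 11.5% and 20.8% of all genes.

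Of 25 measured Polycomb genes, whose products keep Hox clusters silent, 2 rose and 1 fell on the expanded arrays, and 6 rose and 2 fell on the TPA arrays, with list medians of 0.12 and 0.19. As shares these were 12% and 32%, beside 11.5% and 20.8% of all genes. Cbx2, which reads the repressive histone mark, rose by 0.57 ± 0.07 (limma adjusted p = 0.00144) and 0.49 ± 0.08 (0.00281). Pcgf2, a core subunit of the complex PRC1, rose by 0.44 and 0.60. With the mean of the probe sets of a gene both still passed, at 0.30 for Cbx2 on the expanded arrays and 0.24 and 0.32 for Pcgf2. Jarid2, which helps recruit PRC2, fell by 0.50 ± 0.11 on the expanded arrays (limma adjusted p = 0.0174) and by 1.16 ± 0.12 on the TPA arrays (0.00023). The first of these was lost without CTRL 1, CTRL 2, EXPD4 1 or EXPD4 2 (adjusted p of up to 0.0655). Pcgf5 rose by 0.88 ± 0.09 on the TPA arrays and was lower on the expanded than on the TPA arrays by -0.83 on the log2 scale.

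Of 16 measured Trithorax and MLL complex genes, 1 rose on the expanded arrays and 4 on the TPA arrays, with medians of 0.05 and 0.14. Thus 6.25% and 25% passed, beside 11.5% and 20.8% of all genes. The methyltransferase gene Kmt2d rose in both, by 0.37 and 0.51 (limma adjusted p = 0.0077 and 0.0014). Aff1, an elongation factor gene, rose by 0.68 on the TPA arrays.

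Genes of the retinoic acid pathway moved in both directions. Of 15 measured, 3 rose and 2 fell on the expanded arrays, and 3 rose and 4 fell on the TPA arrays, with medians of -0.04 and -0.02. The shares called were 33.3% and 46.7%, beside 11.5% and 20.8% of all genes. Cyp26b1, which degrades retinoic acid, had means of 10.63, 8.77 and 8.05, so that it fell by 1.86 ± 0.11 (limma adjusted p = 4.41e-05) and by 2.58 ± 0.12 (4e-06). The receptor gene Rarg rose by 0.60 ± 0.07 (limma adjusted p = 0.00122) and 1.02 ± 0.08 (6.28e-05), its partner Rxrb by 0.90 and 0.69, and Dhrs3, which turns retinal back to retinol, by 0.54 and 1.11. The other genes called lower were Aldh1a3 in both comparisons, and Crabp2 and Rdh10 on the TPA arrays. Aldh1a3 differed by -2.21 on the expanded arrays, the largest fall of the list there. That call was lost without any 1 of 5 arrays (limma adjusted p of up to 0.09).

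Of 12 measured hair and nail keratins and their regulators, a list fixed around Hoxc13, 4 rose on the expanded arrays and 3 on the TPA arrays, with medians of 0.11 and 0.00. These were 33.3% and 25% of the list, beside 11.5% and 20.8% of all genes. The members that moved were 2 keratin genes and the transcription factor genes Foxq1 and Foxn1. Krt36 had means of 7.45, 11.96 and 12.27, differences of 4.51 ± 0.20 (limma adjusted p = 2.43e-05) and 4.82 ± 0.23 (4.17e-06). Krt84 had means of 6.96, 10.84 and 11.11, differences of 3.88 ± 0.18 and 4.15 ± 0.20. Foxq1, a hair shaft factor, rose by 0.82 and 1.29. Foxn1, the nude gene, rose on the expanded arrays by 0.40 ± 0.09 (limma adjusted p = 0.0227; up to 0.0766 without CTRL 1, CTRL 3, EXPD4 2 or EXPD4 3) and differed by -0.07 on the TPA arrays. The hair cortex keratins Krt31, Krt33a, Krt35, Krt83 and Krt86 were under the limit on all arrays.

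Of 21 other homeobox genes of skin, 3 rose on the expanded arrays, and 3 rose and 1 fell on the TPA arrays, with medians of 0.04 and 0.09. Among these genes 14.3% and 19% passed, beside 11.5% and 20.8% of all genes. Hopx, a homeodomain protein that does not bind DNA, rose by 0.77 ± 0.09 (limma adjusted p = 0.00104) and 1.47 ± 0.10 (2.73e-05). Satb1, a chromatin organiser of epidermis, rose by 0.88 and 1.77 (0.53 and 1.01 with the mean of its probe sets), and Irx2 by 0.52 and 0.82. The call of Irx2 on the expanded arrays was lost without CTRL 1, CTRL 3, EXPD4 1 or EXPD4 2 (adjusted p of up to 0.0583). Hopx and Satb1 were also lower on the expanded than on the TPA arrays, by -0.71 ± 0.10 and -0.88 ± 0.15, the latter not without TPA 2 (adjusted p = 0.0587) and at -0.48 with the mean of its probe sets.

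Among 24 measured non-Hox genes that flank the clusters, 1 passed on the expanded arrays (Cbx1, beside HoxB, 0.27, limma adjusted p = 0.0459) and 4 on the TPA arrays, 2 in each direction. Both shares, 4.17% and 16.7%, were under the 11.5% and 20.8% of all genes. The call of Cbx1 was lost without any 1 array other than CTRL 1 (adjusted p over all alternatives of up to 0.588). Of the non-coding RNAs of the clusters 4 of 13 were measured, and none passed, by limma's adjusted test or at an unadjusted p under 0.05. Of the 6 Cdx and ParaHox genes, relatives of Hox genes outside the clusters, only Pdx1 passed, on the TPA arrays, and it was under the limit on all arrays and missed the threshold without any 1 of the 8.

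**Figure D4:**
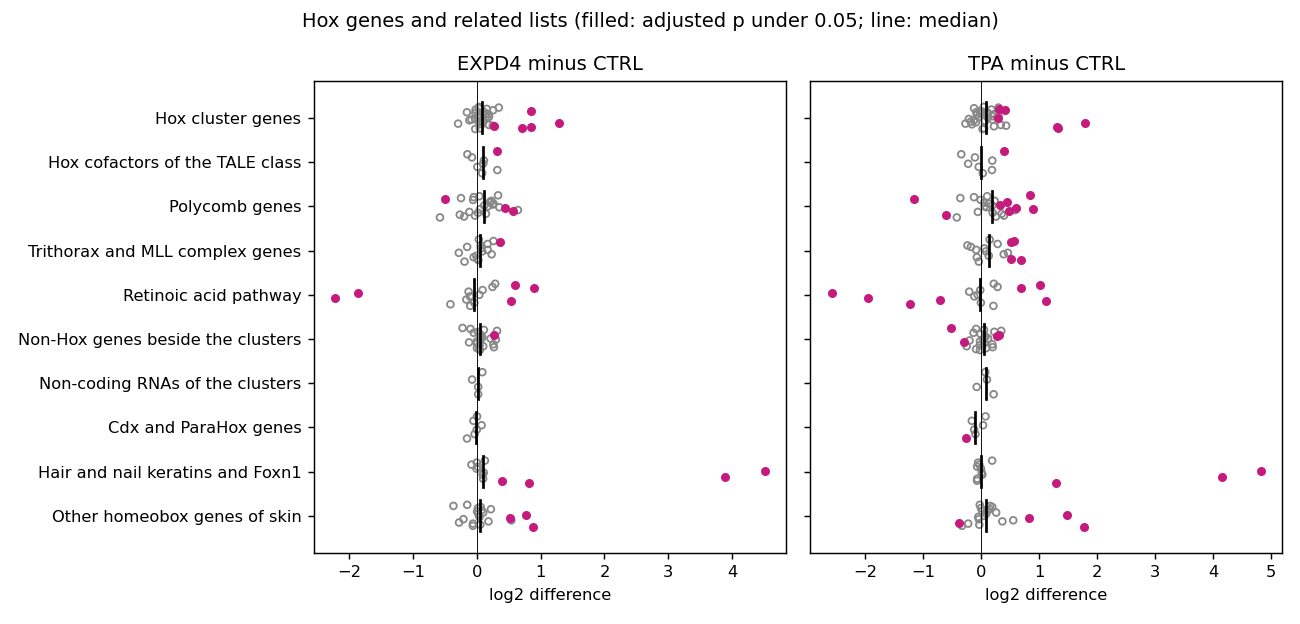
Log2 difference of each measured member of the Hox genes and of the related lists, for expanded minus control (left) and TPA minus control (right), with filled points past the test and a vertical line at each list's median. The filled Hox points, 5 on the left and 6 on the right, all lie above 0, and the 2 points farthest to the right are Krt36 and Krt84.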

How the data were processed

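Basal cells from back-skin epidermis of 8 CD1 mice were profiled on 8 Affymetrix arrays, 1 per mouse. The deposited values are log2 signals made by the authors with RMA, per the submitters' processing notes, which give no version. Array medians over the genes lay between 7.08 and 7.14, and the table held 0 columns of other samples. Of 45141 probe sets, 28898 carried 1 gene symbol in the platform annotation of 2016, which gave 17097 genes. Detection calls, probe positions and scan dates were not used here. Precision rests on the number of arrays.

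Group means were fitted per gene in R 4.3.3 by limma 3.58.1 through lmFit and eBayes, with 5 residual and 3.54 prior degrees of freedom, and adjusted by Benjamini-Hochberg. The fit was tested on simulated data. A fold is 2 to the power of a log2 difference. The members and lists were chosen with earlier results of these data known. Every Hox gene is accounted for. Of other lists, only members past the test were named, at most 4 per comparison with the smallest p. Exceptions were Meis1, some genes flanking HoxD, the dim hair keratins, and Aldh1a3, Crabp2 and Rdh10. These were named after their values were seen. The naming rule did not cover the cell type markers, of which some members that passed and some that did not were named. Alternatives changed the normalization, centring, probe set rule, low-signal filter, background limit, prior, arrays fitted, replicate block and each array in turn.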

Additional observations from a re-analysis of the deposited data

How the results depend on the processing

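The calls of Hoxd11 in all 3 comparisons, and those of Hoxc13 and Hoxd10 against control, kept their direction and side of the threshold in all 16 alternatives. Without 1 array, 3 to 5 Hox genes were called between expanded and control (3 without CTRL 2 or EXPD4 1), 4 to 6 between TPA and control, and 1 to 3 between expanded and TPA (1 without EXPD4 1 or EXPD4 2). Over all genes the calls without 1 array were 1261 to 2076, 2613 to 3344 and 560 to 922, beside 1960, 3559 and 1022. They were 1261 between expanded and control without CTRL 2, and 636, 560 and 568 between expanded and TPA without EXPD4 2, EXPD4 3 and TPA 1. With only the arrays of the groups compared, 511 genes and 1 Hox gene were called between expanded and TPA. Correlations of -0.18 to 0.03 over 7 same-numbered pairs showed no pairing by replicate number, but groups of 3, 3 and 2 arrays cannot exclude it. With the replicate block, 541 genes and 1 Hox gene were called between expanded and TPA, and 3 Hox genes between TPA and control. With the 99th percentile as the limit, 11 Hox genes were above it on all arrays. Raising signals to the limit turned Hoxb9 between TPA and control to -0.030 and Mitf there to -0.038. Mitf was under the limit on all arrays, so its raised value is only the difference between the limits. Hoxb9 was above the limit on 1 array, so its raised value is mostly that difference too. The mean of the probe sets of a gene turned Skap2 there to 0.072, from -0.53. The causes of the other changes were not tested. The low-signal filter left 20 of 34 Hox genes tested. With groups of 3, 3 and 2 arrays and 1 probe set per called gene, small differences near background could not be resolved.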
